A study of Mus musculus with 6 samples.

Results

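The genes described here encode the subunits of the proteasome, its activators and its assembly chaperones, followed in ribosome-associated RNA of mPFC D2 neurons after knockout of GSK3β. Every gene whose symbol is Psm followed by a letter from a to g and a number was taken, without regard to its values, which gave 49 of the 47729 genes listed. Their 231 transcripts were summed to 1 value per gene and library, called the gene total below. The unit is FPKM, a count of sequenced fragments divided by transcript length and library size, so that levels can be compared between genes.

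All 6 libraries came from the mPFC of adult male C57BL/6 mice that carried D2Cre, Cre-activated Flag-Cas9 and RiboTag, so both groups expressed Cas9 and a hemagglutinin-tagged Rpl22 in cells with D2Cre activity. The 3 Ctrl libraries were taken after injection of AAV GFP and the 3 libraries of Gsk3sKO in mPFC D2, called Gsk3sKO below, after injection of AAV Gsk3sgRNA/GFP, which carries a guide against Gsk3b. Tissue was collected 3 weeks after injection, and ribosome-bound RNA was obtained by immunoprecipitation of the tag. The labels do not say whether a library is 1 mouse or a pool, and p-values therefore cover only library-to-library spread, part of which may be technical. The transgene D2Cre, not the Drd2 locus itself, sets which cells are tagged.

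The proteasome degrades proteins that carry ubiquitin chains. Its barrel, the 20S core, is built from rings of alpha subunits, which gate the entrance, and rings of beta subunits, of which Psmb5, Psmb6 and Psmb7 cut peptide bonds. The 19S regulatory particle caps the core, binds ubiquitinated substrates, removes the chains and unfolds the protein with a ring of ATPases, and in immune cells or after interferon the catalytic subunits are replaced by Psmb8, Psmb9 and Psmb10 to form the immunoproteasome. In neurons the proteasome adjusts the protein content of synapses.

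Proteasome genes were abundant in these libraries. Their gene totals summed to between 1887 and 2092 FPKM per library, and 37 of the 49 lay above the median of 8.61 FPKM over the 12874 gene totals tested. As a share of all FPKM they were 0.344%, 0.348% and 0.475% in Ctrl 1 to 3 and 0.463%, 0.481% and 0.489% in Gsk3sKO 1 to 3. Markers of neurons were high, with Snap25 between 991 and 1134 FPKM, and Drd2 lay between 1.58 and 14.1 FPKM, with its lowest and highest value both in Ctrl. The targeted Gsk3b was at 35.6, 53.8 and 56.5 FPKM in Ctrl against 36.9, 37.0 and 33.6 FPKM in Gsk3sKO, with overlapping groups (log2 fold change -0.40, SE 0.19, limma unadjusted p = 0.0648). A guide cut need not lower the RNA, so this value does not measure the knockout. The files give no read counts, and depth behind each value was not used.

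Among the constitutive core genes, mean levels over the 6 libraries ran from 16.6 FPKM for Psmb2, a structural beta subunit, to 149 FPKM for Psma4, an alpha subunit. In the alpha ring the lowest of the general subunits was Psma3 at 29.2 FPKM. In the beta ring the highest was Psmb6 at 77.3 FPKM. The 19S genes spanned a narrower range, from 27.0 FPKM for the lid subunit Psmd13 to 129 FPKM for the ubiquitin receptor Psmd4. Within the ATPase ring the extremes were Psmc4 at 36.2 FPKM and Psmc1 at 113 FPKM, and the lid gene with the highest level was Psmd7 at 127 FPKM. In the base without ATPases the lowest was Psmd2, a scaffold, at 61.6 FPKM.

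Chaperones, which build the complex and leave it, were among the lower members. They lay between 5.94 FPKM for Psmg3 and 18.2 FPKM for Psmg4. Of the activators and the inhibitor, Psme1, a subunit of the interferon-inducible activator, had the highest mean at 43.1 FPKM and the inhibitor gene Psmf1 was at 5.61 FPKM. Genes restricted to other tissues were near 0. Psma8, an alpha subunit of testis, had 0.151 FPKM in Ctrl 3 and 0 in the other libraries, and Psmb11, the catalytic subunit of the thymus, had at most 0.121 FPKM. Psme2b, a near copy of Psme2 that can share its reads, had at most 0.908 FPKM and its level is uncertain for that reason.

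**Figure D1:**
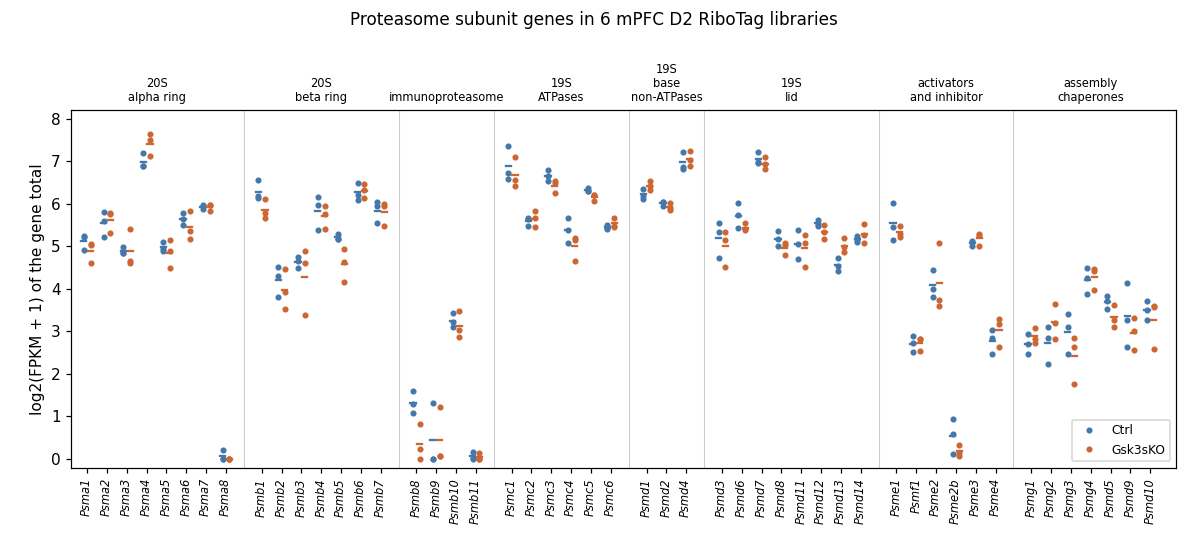
Gene totals of the 49 proteasome genes, as log2(FPKM + 1), by class. Each point is 1 library, blue for Ctrl and orange for Gsk3sKO, with 3 points per group, and each short line is the group mean. The core and 19S genes sit well above Psma8, Psmb8, Psmb9, Psmb11 and Psme2b, and the groups overlap for most genes.

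To ask whether GSK3β knockout changed these genes, Gsk3sKO was compared with Ctrl by limma on log2(FPKM + 1), fitted over all gene totals with a mean of at least 1 FPKM. Psmb5 and Psmb1 fell and Psmd13 and Psma4 rose at an unadjusted p under 0.05. These were 4 of the 44 members that passed the filter, or 9.09%, against 6.56% of all gene totals tested. By direction, 2 were lower, or 4.55% against 5.20% of all gene totals, and 2 were higher, or 4.55% against 1.36%. None passed after Benjamini-Hochberg adjustment over all gene totals (limma, lowest adjusted p = 0.688), and none did by limma without the trend or by a linear model without moderation, each of which had 2 members at an unadjusted p under 0.05. Over the 17 settings tried, the lowest adjusted p of a member in each ran from 0.276 to 0.973. The 5 members not tested were Psma8, Psmb8, Psmb9, Psmb11 and Psme2b.

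Ctrl and Gsk3sKO did not overlap in 4 of the 44 members. Psmb5, Psmb1 and Psmc5 were lower in every Gsk3sKO library than in any Ctrl library, which is 6.82% of the members against 8.30% of all gene totals, and Psmd13 was higher, 2.27% against 3.71%. The log2 fold change was negative in 26 members, or 59.1%, against 58.9% of all gene totals tested. Its median was -0.11 over the members and -0.06 over all gene totals. After rescaling of each library these medians were -0.053 and -0.004. By these counts the proteasome genes as a group were close to the rest of the table.

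The medians of the pooled families lay between -0.13 and 0.03. The finer classes of the plot lay farther apart, from -0.24 in the beta ring to 0.08 in the 3 tested 19S base genes without ATPases. The 7 assembly chaperones also had a median of -0.24, with 4 negative, and the ATPases of the 19S particle -0.19. The constitutive core had a median log2 fold change of -0.13 over 14 tested genes (-0.0079 without Gsk3sKO 3), the 19S particle -0.11 over 17 and the activators, inhibitor and chaperones 0.03 over 12. Psmb10, the only immunoproteasome gene tested, was at -0.12. Within the core the 7 tested alpha genes had a median of 0.00 and the 7 beta genes a median of -0.24. Of the 7 beta genes 6 were negative, as were 58.9% of all gene totals tested. Gsk3sKO 3 stood apart here, as its core genes had a median log2 difference of -0.40 from the Ctrl mean, against -0.077 to 0.10 in the other libraries. In the plot of differences the intervals of all but 4 genes include 0.

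**Figure D2:**
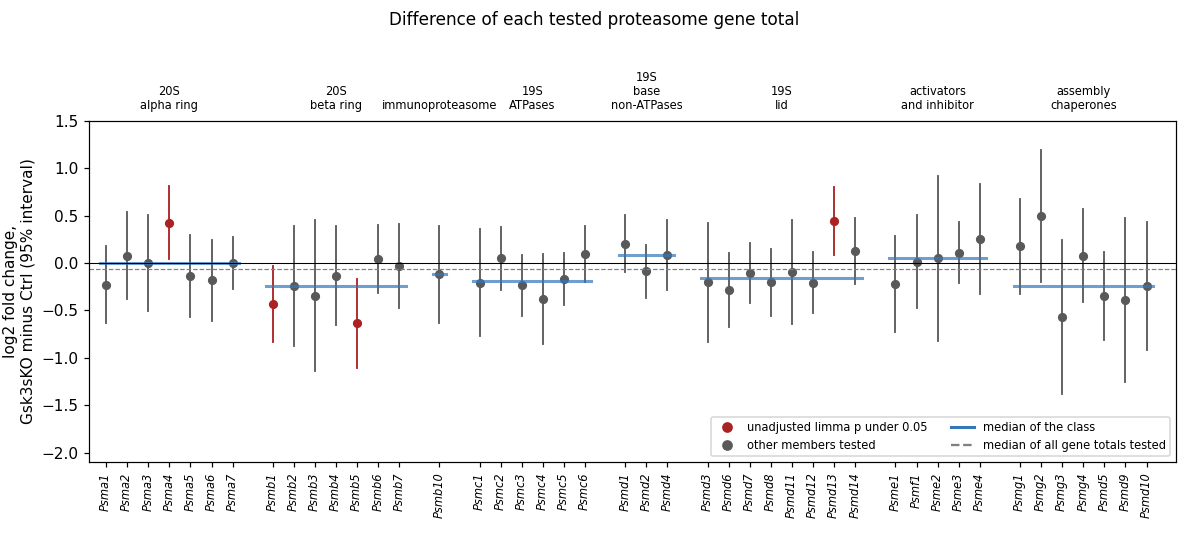
Difference between Gsk3sKO and Ctrl for the 44 tested members, as log2 fold change of log2(FPKM + 1) with its 95% interval from limma (3 libraries per group). Red marks the 4 genes with an unadjusted p under 0.05, blue lines the median of each class and the dashed line the median of -0.06 over all gene totals tested. The intervals of the other 40 genes include 0.

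Psmb5 encodes the chymotrypsin-like catalytic subunit, the main target of proteasome inhibitor drugs. Its level was 38.0, 35.1 and 35.1 FPKM in Ctrl 1 to 3 and 29.8, 23.7 and 16.9 FPKM in Gsk3sKO 1 to 3. All Gsk3sKO libraries were below all Ctrl libraries, and the 3 Gsk3sKO libraries were more spread than the Ctrl libraries. The mean went from 36.1 ± 1.68 to 23.4 ± 6.48 FPKM (SD, n = 3 each), a log2 fold change of -0.64 (SE 0.20, limma unadjusted p = 0.0137, adjusted p = 0.688). It was the most negative of the 44 members, and the unadjusted p stayed under 0.05 when any 1 library was left out of the fit of gene totals. In the fit of transcripts the same values, as Psmb5-201, passed in 2 of the 6 fits without 1 library and in 9 of 15 settings, with a limma unadjusted p of up to 0.0717. The exact permutation test over the 6 libraries gave p = 0.1, the smallest it allows with 3 against 3. The gene (chromosome 14, 54614119 to 54618022, minus strand, GRCm38) has 1 listed transcript, so no division of reads among isoforms enters its value.

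Psmb1, a beta subunit without catalytic activity of its own, was at 92.9, 71.1 and 68.8 FPKM in Ctrl against 68.0, 49.9 and 54.0 FPKM in Gsk3sKO. The highest Gsk3sKO library came within 1 FPKM of the lowest Ctrl library. Its log2 fold change was -0.43 (SE 0.17, limma unadjusted p = 0.0376, adjusted p = 0.750). The unadjusted p was 0.118 without Ctrl 1, 0.0510 without Ctrl 2, 0.127 without Gsk3sKO 2 and 0.0888 without Gsk3sKO 3 (limma), so the call rested on these libraries.

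Psma4, an alpha subunit, was the most abundant member and was at 116, 118 and 145 FPKM in Ctrl against 139, 196 and 178 FPKM in Gsk3sKO. Gsk3sKO 1 lay inside the Ctrl range and the other Gsk3sKO libraries above it. The log2 fold change was 0.43 (SE 0.17, limma unadjusted p = 0.0344, adjusted p = 0.741). Leaving out Ctrl 1, Ctrl 2, Gsk3sKO 2 or Gsk3sKO 3 gave a limma unadjusted p of 0.0913, 0.105, 0.127 and 0.0838 in turn. Nearly all of the gene total came from 1 coding transcript, Psma4-201, at 125 ± 15.1 FPKM in Ctrl and 171 ± 29.4 FPKM in Gsk3sKO (SD, n = 3 each). In the fit of transcripts Psma4-201 had a limma unadjusted p of 0.0408 (adjusted p = 0.842). It passed in 9 of 15 settings and in 2 of the 6 fits without 1 library.

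The promoters of 3 of these 4 genes are shown because they had a limma unadjusted p under 0.05, although none passed after adjustment. Psmb1 had no matched RefSeq window. Each window holds 250 bases before and 50 after the RefSeq start site on GRCm38.p6. In each, capitals mark TGACNNNGC, the letters of the antioxidant response element through which Nfe2l1 and Nfe2l2 are known to drive proteasome genes, or CCAAT, the letters bound by NF-Y. Both strands were searched. Psmb5 lies at chr14:54617946-54618245 on the minus strand, Psma4 at chr9:54950609-54950908 and Psmd13 at chr7:140882144-140882443 on the plus strand. The Psmd13 window lies inside the GENCODE gene, downstream of the start of its main coding transcript, Psmd13-201, at 140881968. It therefore does not show the bases before that start.
Psmb5: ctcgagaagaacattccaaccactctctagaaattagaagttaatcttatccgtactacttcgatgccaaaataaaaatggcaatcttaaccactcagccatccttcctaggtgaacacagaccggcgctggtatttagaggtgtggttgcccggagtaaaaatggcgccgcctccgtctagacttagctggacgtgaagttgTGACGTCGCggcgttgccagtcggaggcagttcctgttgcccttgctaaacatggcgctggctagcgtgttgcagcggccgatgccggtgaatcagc
Psma4: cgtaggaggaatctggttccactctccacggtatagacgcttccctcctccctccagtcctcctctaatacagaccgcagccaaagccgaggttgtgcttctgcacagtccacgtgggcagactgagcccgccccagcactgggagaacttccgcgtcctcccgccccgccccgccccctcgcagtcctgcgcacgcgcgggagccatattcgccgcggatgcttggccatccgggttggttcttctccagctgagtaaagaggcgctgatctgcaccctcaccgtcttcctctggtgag
Psmd13: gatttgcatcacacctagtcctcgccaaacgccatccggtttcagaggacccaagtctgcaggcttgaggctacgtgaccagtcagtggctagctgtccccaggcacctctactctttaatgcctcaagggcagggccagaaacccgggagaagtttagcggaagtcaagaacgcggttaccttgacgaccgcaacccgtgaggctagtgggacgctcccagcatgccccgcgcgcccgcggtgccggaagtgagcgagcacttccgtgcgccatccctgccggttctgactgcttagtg

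Psmb5 held TGACNNNGC as TGACGTCGC, starting 47 bases before the start site, and the windows of Psma4 and Psmd13 held neither motif. RefSeq windows were matched for 41 of the 49 members. TGACNNNGC was in 6 of the 41, or 14.6%, against 14.0% of all genes with a promoter of this length. The other 5 members with it were Psmd9, Psme4, Psmb6, Psmd12 and Psmc6, none of which passed the test. CCAAT was in 14 of the 41, or 34.1%, against 41.1% of all genes.

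The other constitutive catalytic subunits did not pass the test. Psmb6, the caspase-like subunit, was at 89.0, 72.8 and 67.2 FPKM in Ctrl and 78.6, 87.6 and 68.8 FPKM in Gsk3sKO. Psmb7, the trypsin-like subunit, was at 45.7, 60.1 and 64.4 FPKM in Ctrl and 60.6, 62.5 and 43.4 FPKM in Gsk3sKO. The groups overlapped for both genes, with log2 fold changes of 0.04 (95% interval -0.32 to 0.40) and -0.03 (95% interval -0.48 to 0.41). Neither interval reached the estimate for Psmb5, and the difference between the subunits was not tested.

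Of the immunoproteasome subunits, Psmb10 was at 8.30, 9.78 and 7.60 FPKM in Ctrl and 10.2, 7.17 and 6.34 FPKM in Gsk3sKO. Its groups overlapped (log2 fold change -0.12, SE 0.22, limma unadjusted p = 0.606). Psmb8, which replaces Psmb5, had 1.11, 2.01 and 1.45 FPKM in Ctrl against 0, 0.180 and 0.773 FPKM in Gsk3sKO. Every Gsk3sKO library was below every Ctrl library, but the gene averaged 0.920 FPKM and missed the filter. In the fit without the filter its log2 fold change was -0.96 (SE 0.30, limma unadjusted p = 0.0184, adjusted p = 0.798). Psmb9, which replaces Psmb6, had 0, 1.48 and 0 FPKM in Ctrl against 0.0545, 1.31 and 0.0577 FPKM in Gsk3sKO, with 1 library in each group above the rest.

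Set against its constitutive partner, Psmb8 made up 2.84%, 5.42% and 3.96% of Psmb8 plus Psmb5 in Ctrl and 0%, 0.754% and 4.39% in Gsk3sKO. Gsk3sKO 3 lay inside the Ctrl range, as Psmb5 was lowest there and Psmb8 highest among the Gsk3sKO libraries (2-sided exact permutation p = 0.3). The share of Psmb10 in Psmb10 plus Psmb7 was 13.3% ± 2.49 in Ctrl and 12.5% ± 2.07 in Gsk3sKO (SD, n = 3 each, exact permutation p = 0.7). In every library the constitutive form was the more abundant one of each pair.

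Psmb8 is best known from immune cells, and microglia are the immune cells of the brain. Of 7 listed microglia markers, 6 were tested and 2, C1qa and C1qb, fell (log2 fold changes -0.82 and -0.67, limma unadjusted p of 0.0205 and 0.0164), against 5.20% of all gene totals. The other 4 tested markers had overlapping groups, with log2 fold changes of -0.89 for Aif1, -0.21 for Cx3cr1 and -0.18 for Csf1r and of 0.72, in the opposite direction, for P2ry12. The sum over the 7 markers was 22.4 to 34.5 FPKM in Ctrl and 16.4 to 22.1 FPKM in Gsk3sKO, and no marker was at 0 in any library. Their part in the difference of Psmb8 was not tested. Of the oligodendrocyte markers Mag fell (log2 fold change -0.69, limma unadjusted p = 0.0234), Mbp and Mobp had overlapping groups, and Mog, at 3.23 FPKM in Ctrl and 0.602 FPKM in Gsk3sKO, passed the filter through Ctrl alone, so no test is given for it. Of 5 excitatory neuron markers Tbr1 fell, and none of the 5 astrocyte or 6 endothelial markers passed the test. In immunoprecipitates of tagged ribosomes, fewer cells of a type, less RNA per cell and less untagged RNA carried along cannot be told apart.

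**Figure D3:**
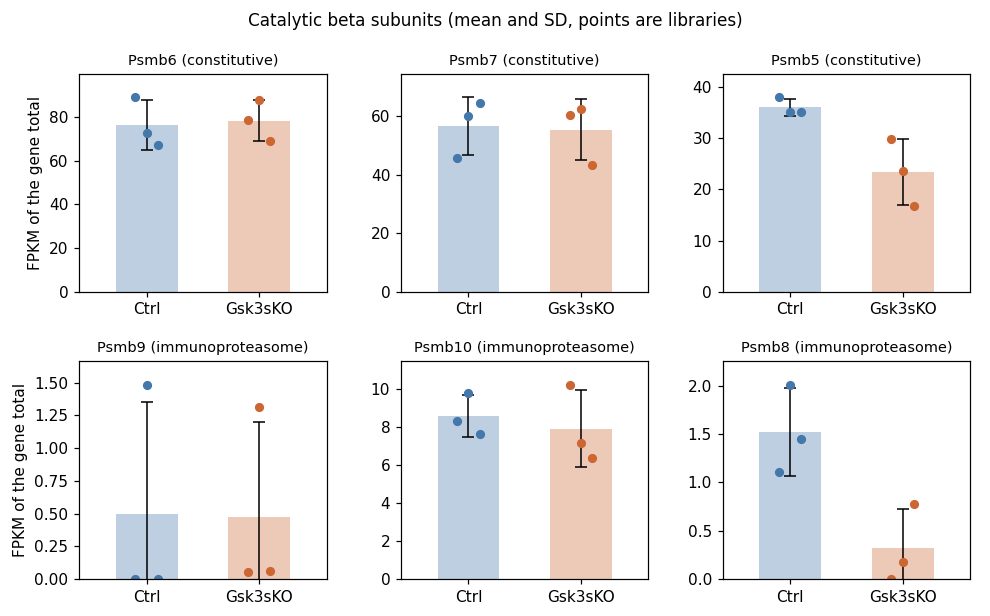
FPKM of the 3 catalytic subunits (top) and of the immunoproteasome subunit that replaces each (bottom). Bars are means, error bars the SD over 3 libraries, cut at 0, and points the libraries, with a separate axis from 0 for each gene. Psmb5 and Psmb8 are lower in all Gsk3sKO libraries, and the groups overlap for Psmb6, Psmb7, Psmb9 and Psmb10.

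In the 19S particle only Psmd13 passed the test. It encodes a structural subunit of the lid. Its gene total was 20.4, 22.2 and 25.5 FPKM in Ctrl and 28.0, 35.3 and 30.5 FPKM in Gsk3sKO, without overlap (log2 fold change 0.45, SE 0.16, limma unadjusted p = 0.0213, adjusted p = 0.688). The p was 0.0579 without Ctrl 1, 0.0611 without Ctrl 2 and 0.0791 without Gsk3sKO 2 (limma). Psmc5, an ATPase, was at 77.2, 77.8 and 81.7 FPKM in Ctrl and 72.6, 65.8 and 72.5 FPKM in Gsk3sKO. Its groups did not overlap, with a log2 fold change of -0.17 (SE 0.12, limma unadjusted p = 0.203, adjusted p = 0.844). The linear model without moderation gave it an unadjusted p of 0.0357, the only 1 of 17 settings in which it passed.

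The higher total of Psmd13 was not seen in its main coding transcript. Psmd13-201, with 13 exons and 376 codons, was at 14.8, 12.9 and 14.8 FPKM in Ctrl and 13.5, 10.0 and 5.37 FPKM in Gsk3sKO. Psmd13-209, a coding transcript of 726 bases that lacks 4 of these exons, was at 3.02, 1.68 and 5.29 FPKM in Ctrl and 11.9, 17.2 and 0 FPKM in Gsk3sKO. Psmd13-211, annotated as a target of nonsense-mediated decay, was at 1.46, 1.15 and 1.88 FPKM in Ctrl and 1.08, 6.39 and 21.9 FPKM in Gsk3sKO. Different Gsk3sKO libraries therefore carried the higher total through different transcripts, and none of the 3 passed the test alone.

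The total also depended on how transcripts were added. FPKM divides by length, so a read given to a short transcript adds more than 1 given to a long transcript. Over protein-coding transcripts alone the log2 fold change of Psmd13 was -0.21 (limma unadjusted p = 0.706), and with each FPKM weighted by transcript length it was 0.09 (limma unadjusted p = 0.601). Psmd13-211 starts 504 bases later than Psmd13-201, ends 354 bases earlier and lacks its exon 3, of 35 bases, shown because its absence shifts the reading frame (chr7:140886388-140886422, plus strand, GRCm38).
Psmd13-201 exon 3: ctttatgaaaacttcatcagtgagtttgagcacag

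At the level of transcripts, DET here means a differentially expressed transcript by limma, and the study's own list was not compared. Of the 83 proteasome transcripts tested, 6 were DETs at an unadjusted p under 0.05, or 7.23%, against 5.56% of all transcripts tested. By direction 4 were lower, or 4.82% against 3.75%, and 2 higher, or 2.41% against 1.81%. The lowest adjusted p among them was 0.740 (limma). They were Psmd8-202, Psmd8-203, Psma3-206, Psmb5-201, Psma4-201 and Psmc3-203. Psma3-206 was 1 of 15 that passed the filter through 1 group alone. Of the 68 with a mean of at least 1 FPKM in both groups, a limit chosen after seeing the data, 5 were DETs, or 7.35%, against 4.37% of all such transcripts. Without Gsk3sKO 1 the count was 11 and without Ctrl 2 it was 3.

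Psmd8, a lid subunit, gave opposite DETs. Psmd8-202 was at 28.5, 24.2 and 32.6 FPKM in Ctrl against 9.39, 0.598 and 5.99 FPKM in Gsk3sKO. Psmd8-203 was at 7.18, 4.17 and 0.616 FPKM in Ctrl against 14.3, 27.7 and 13.8 FPKM in Gsk3sKO. Neither transcript overlapped between the groups. Psmd8-202 fell by 2.58 on the log2 scale (SE 0.68, limma unadjusted p = 0.00831, adjusted p = 0.740) and Psmd8-203 rose by 2.19 (SE 0.64, limma unadjusted p = 0.0128, adjusted p = 0.781). Psmd8-202 made up 71.4% to 93.5% of the gene total in Ctrl and 1.9% to 28.6% in Gsk3sKO.

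The Psmd8 gene total, in contrast, was at 39.9, 30.9 and 34.8 FPKM in Ctrl and 32.9, 31.6 and 26.7 FPKM in Gsk3sKO, with overlap (log2 fold change -0.20, SE 0.16, limma unadjusted p = 0.226). The call for Psmd8-202 held in all 15 settings tried, and that for Psmd8-203 in 14, with a limma unadjusted p of 0.0515 without Gsk3sKO 2. Both transcripts have 7 exons and end at the same base. Psmd8-203 starts 121 bases farther upstream on the minus strand of chromosome 7 and its annotated reading frame is 64 codons longer. The first 93 coding bases of Psmd8-203, which Psmd8-202 lacks, are shown because only reads over this start tell the 2 apart (chr7:29180553-29180645, minus strand, GRCm38), with the start codon in capitals.
Psmd8-203 coding start: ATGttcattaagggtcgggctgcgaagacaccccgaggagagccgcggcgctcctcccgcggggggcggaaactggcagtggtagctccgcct

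Psmc3, an ATPase, had a DET that was absent from some libraries. Psmc3-203 was at 39.4, 36.5 and 36.9 FPKM in Ctrl against 38.3, 0 and 0 FPKM in Gsk3sKO. Gsk3sKO 1 was thus within the Ctrl range and the other Gsk3sKO libraries had no value. Its fitted log2 fold change was -3.50 (SE 1.42, limma unadjusted p = 0.0463, adjusted p = 0.842), and of the 6 fits without 1 library it passed in 1, the fit without Gsk3sKO 1. The unadjusted p reached 0.153 over all settings (limma). Psmc3-202 was at 68.9, 48.1 and 58.0 FPKM in Ctrl and 47.3, 69.0 and 84.6 FPKM in Gsk3sKO. Its groups overlapped (log2 fold change 0.17, SE 0.25, limma unadjusted p = 0.515). The gene total of Psmc3 also had overlapping groups (log2 fold change -0.23, SE 0.14, limma unadjusted p = 0.130). Psmc3-203 starts 91 bases later than Psmc3-202 and lacks its exon 3, shown because these 126 bases encode 42 codons in frame (chr2:91054979-91055104, plus strand, GRCm38).
Psmc3-202 exon 3: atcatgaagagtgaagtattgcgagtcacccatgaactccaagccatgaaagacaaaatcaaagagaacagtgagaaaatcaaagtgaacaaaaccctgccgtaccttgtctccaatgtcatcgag

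Psma3 encodes an alpha subunit, and its transcript Psma3-206 is annotated as a target of nonsense-mediated decay. It was at 4.92, 3.33 and 6.29 FPKM in Ctrl against 0, 2.13 and 0 FPKM in Gsk3sKO, below Ctrl in every library. Its mean was 4.84 FPKM in Ctrl and 0.709 FPKM in Gsk3sKO, under the filter, so a transcript kept for its Ctrl level had to differ and no test is given for it. Its exon 2 runs 24 bases farther than in Psma3-202, and the stop codon in capitals closes the frame after 35 codons (chr12:70978816-70978839, plus strand, GRCm38).
Psma3-206 extension: gTAAgaagccctgtttgatttgaa

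The full-length coding transcript Psma3-202 was at 17.6, 20.7 and 16.1 FPKM in Ctrl and 20.9, 20.5 and 26.2 FPKM in Gsk3sKO, with overlap. Swings between transcripts of 1 gene were also seen without regard to group. Psmd4-202 was at 135, 52.2 and 33.1 FPKM in Ctrl and 47.1, 129 and 54.5 FPKM in Gsk3sKO. Psmd4-203, in the same order, was at 5.48, 57.8, 80.1, 68.5, 7.10 and 74.5 FPKM. The gene total of Psmd4 stayed between 112 and 150 FPKM, so its transcripts traded places in Ctrl 1 and Gsk3sKO 2 alike.

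**Figure D4:**
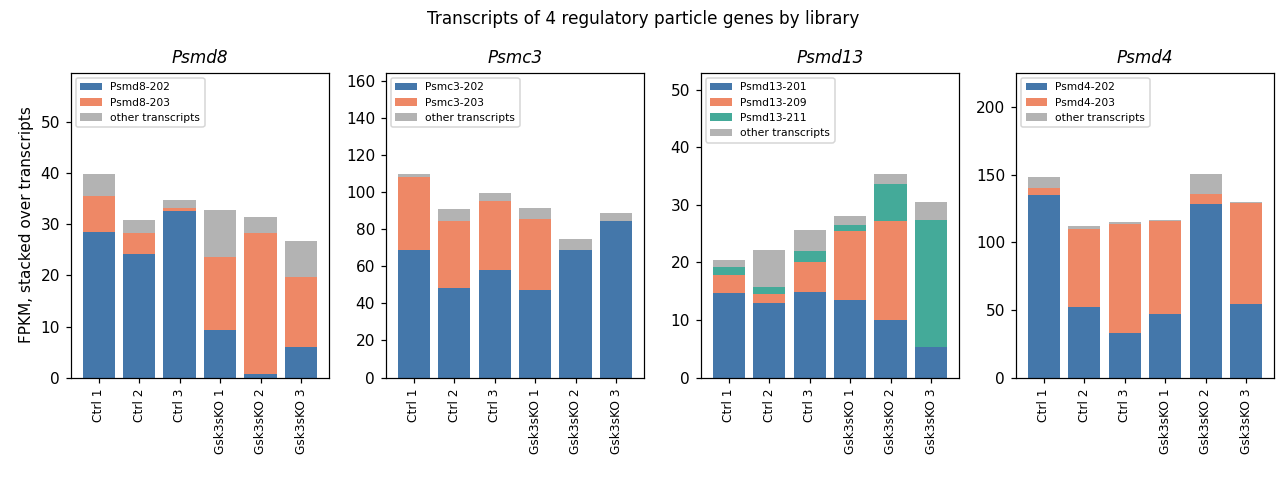
FPKM of named transcripts, stacked to the gene total, for Psmd8, Psmc3, Psmd13 and Psmd4, with 1 bar per library and a separate axis from 0 for each gene. In Psmd8 the blue Psmd8-202 makes up most of every Ctrl bar and at most 28.6% of a Gsk3sKO bar, in Psmc3 the orange Psmc3-203 is missing from Gsk3sKO 2 and 3, and in Psmd4 the blue and orange parts vary within both groups.

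Chaperones and activators held the most positive estimate of all members, that of Psmg2, and the next most negative after Psmb5, that of Psmg3, and no gene of these classes passed the test. Psmg2, which helps assemble the alpha ring, was at 3.68, 7.60 and 6.16 FPKM in Ctrl and 11.5, 8.14 and 6.04 FPKM in Gsk3sKO (log2 fold change 0.49, SE 0.30, limma unadjusted p = 0.141). Psmg3, another chaperone of core assembly, was at 9.61, 7.65 and 4.51 FPKM in Ctrl and 5.24, 6.22 and 2.42 FPKM in Gsk3sKO (log2 fold change -0.57, SE 0.36, limma unadjusted p = 0.145). The groups overlapped for both genes. The estimate for Psmg2 was 0.25 without Ctrl 1 and 0.28 without Gsk3sKO 1, and that for Psmg3 was -0.37 without Ctrl 1 and -0.25 without Gsk3sKO 3.

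Genes that act with the proteasome but are not its Psm subunits were taken from a list of 34 symbols of ubiquitin, shuttle factors, unfolding enzymes and regulators, of which 30 were found and all 30 were tested. Of these, 1 fell, or 3.33% against 5.20% of all gene totals, and none rose, against 1.36%, with a median log2 fold change of -0.07. Neither share is above that of the whole table. The gene that fell was Ubb, which encodes polyubiquitin, at 1337, 1106 and 1045 FPKM in Ctrl and 925, 855 and 716 FPKM in Gsk3sKO (log2 fold change -0.48, SE 0.17, limma unadjusted p = 0.0227, adjusted p = 0.692). All Gsk3sKO libraries were below all Ctrl libraries.

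Nfe2l1, the transcription factor that raises proteasome genes when the proteasome is impaired, was at 31.8, 21.9 and 19.9 FPKM in Ctrl and 23.2, 22.4 and 29.7 FPKM in Gsk3sKO. The assembly factor Pomp was at 46.9 ± 8.38 FPKM in Ctrl and 46.2 ± 9.66 FPKM in Gsk3sKO, and the ubiquitin receptor Adrm1 at 31.7 ± 2.21 and 29.1 ± 4.75 FPKM (SD, n = 3 each). Shfm1, a small lid subunit, was at 48.8 FPKM in Ctrl 1 and between 18.1 and 26.4 FPKM in the other libraries. The groups overlapped for all 4 of these genes, and none passed the test.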

How the data were processed

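Ribosome-associated RNA was sequenced in 3 Ctrl and 3 Gsk3sKO libraries. The authors deposited FPKM for 115220 transcripts, made on GRCm38 with HISAT2 2.1.0, SAMtools 1.9 and StringTie 1.3.4d per the submitters' processing notes, which give no settings. The division of reads among transcripts of a gene is an estimate. The authors' own folds, p-values and q-values were not used. All 6 value columns were used and 0 were left out. The depth is unknown from the table, which holds no counts.

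FPKM were summed by gene identifier. Gene totals and transcripts with a mean of at least 1 FPKM were fitted over the whole table with limma 3.58.1 in R 4.3.3 (lmFit, eBayes with a trend, 2-sided) on log2(FPKM + 1), without covariates. Fold changes are on that scale, which understates low genes. Adjustment was by Benjamini-Hochberg over all features tested. The fit was tested on simulated data. Python 3.11.15 with pandas 2.3.3, numpy 2.4.6 and matplotlib 3.10.9 was used for tables and plots. Transcript names, types and exons came from GENCODE M21 (GRCm38).

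Members and lists were chosen with earlier results of these data known. Named genes were those with an unadjusted p under 0.05 or no overlap, the catalytic subunits, the highest and lowest of each class, the largest estimates, members with a DET, tissue-restricted or near-copy members, and a few list genes. Alternatives were pseudocounts of 0.1 and 0.5, no filter or a filter of 5 FPKM, median-ratio rescaling, limma without the trend, a linear model without moderation, a replicate block and leaving out each library, and, chosen after seeing the data, coding transcripts only and length-weighted totals.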

Additional observations from a re-analysis of the deposited data

How the results depend on the processing

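Replicate numbers are shared between the groups, but same-numbered libraries did not deviate together (r = -0.027, -0.011 and -0.081), so the numbers do not pair them. The replicate block left 2 genes lower and 2 higher and gave 7 DETs in place of 6. Genes lower numbered 3 with no filter and with length weights, where Psmb8 joined, 1 under median-ratio rescaling, without the trend (Psmb5 in both) and without moderation (Psmc5), and 1 to 2 with 1 library left out (Psmb5 without Gsk3sKO 2 or 3, with Psmd6 without Ctrl 1 and with Psmc4 without Ctrl 2). Genes higher numbered 1 over coding transcripts only, with length weights, without moderation and without the trend, and 0 to 2 with 1 library left out (0 without Ctrl 1, Ctrl 2 or Gsk3sKO 2). DETs numbered 3 without moderation and without the trend, and 3 to 11 with 1 library left out. The core median of -0.13 was -0.071 after rescaling and -0.24 (without Gsk3sKO 1) to -0.0079 (without Gsk3sKO 3) with 1 library left out. The 19S median moved from -0.11 to -0.19 over coding transcripts and to -0.044 after rescaling, and was -0.14 to -0.028 with 1 library left out. The accessory median of 0.034 became -0.15 over coding transcripts and -0.11 with length weights, and was -0.10 to 0.081 with 1 library left out. The immunoproteasome median became -0.69 with length weights, where Psmb8 passed the filter through Ctrl alone. Its weighted mean was 2.495 in Ctrl and 0.534 in Gsk3sKO. A gene kept for its Ctrl level had to differ, so neither its count as lower with length weights nor this median tests it.

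Psmb5 kept an unadjusted p under 0.05 in 16 of 17 settings, Psmd13 in 12, Psma4 in 11 and Psmb1 in 10. The linear model without moderation gave Psmb5 0.0515. Signs turned for Psmd13 over coding transcripts (-0.21), for Psmb7 after rescaling (0.030) and for the Psma3 total, at 0.00, with pseudocounts of 0.1 (-0.0013) and 0.5 (-0.0007), which was 0.37 over coding transcripts (limma unadjusted p = 0.0637) and 0.14 with length weights. With 1 library left out the ranges spanned 0 for Psmb6 (-0.046 to 0.154), Psmb7 (-0.18 to 0.13), Psmb10 (-0.30 to 0.0083) and Psma3 (-0.26 to 0.14). None of these 4 genes passed the test in any setting. The causes were not tested. With 3 libraries per group and no counts, small differences cannot be resolved.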

Other observations

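Transcripts annotated as targets of nonsense-mediated decay made up 0.973%, 0.629% and 0.763% of the summed FPKM of the proteasome genes in Ctrl 1 to 3 and 1.72%, 1.81% and 1.93% in Gsk3sKO 1 to 3, a share chosen after its values were seen. Over the 21767 genes with a coding transcript the same share was 1.40% to 1.71% in Ctrl and 1.52% to 1.63% in Gsk3sKO. Single transcripts gave much of it in Gsk3sKO. Psma6-202 was at 25.0 FPKM in Gsk3sKO 1 and at 0 elsewhere, and Psmc5-202 at 12.7 FPKM in Gsk3sKO 2 and at 0 elsewhere. Psmd11-215 was at 13.3 FPKM in Gsk3sKO 2, 4.16 FPKM in Ctrl 1, 2.39 FPKM in Gsk3sKO 1 and 0 in the others, and Psmd13-211 was highest in Gsk3sKO 3, at 21.9 FPKM.

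Retained-intron transcripts set other single values. In Gsk3sKO 3 the gene total of Psme2, an activator subunit, was 32.7 FPKM, of which Psme2-206 and Psme2-207 gave 13.1 and 15.8 FPKM and the coding Psme2-208 3.21 FPKM. In the other libraries the total lay between 11.0 and 20.8 FPKM. Psmd9-203 was at 8.30 FPKM in Ctrl 1 and at most 0.0634 FPKM elsewhere, and the gene total of the chaperone Psmd9 was highest in Ctrl 1, at 16.6 FPKM.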
